A study of Mus musculus with 10 samples.

Results

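The tricarboxylic acid (TCA) cycle, pyruvate entry, ketone and branched-chain oxidation genes described here are 31 genes, taken by symbol from the 55858 rows of a table of length-corrected transcript abundance (TPM, which sums to a fixed total in each library) made from whole mouse hearts at postnatal day 10. Every symbol had 1 row. The cKO group held 5 hearts of MCM; Chmp4bF/F mice injected under the skin with tamoxifen at 0.1 mg/g on 2 consecutive days from postnatal day 0. The control group held 5 hearts of mice with the same MCM; Chmp4bF/F alleles given corn oil. Chmp4b encodes a subunit of the ESCRT-III membrane-remodelling machinery, and the series asks what its loss does to the T-tubules of the heart. The labels do not spell out MCM or name the promoter that drives it, and no group received tamoxifen without the floxed alleles, so loss of Chmp4b and tamoxifen itself cannot be told apart. Each heart is 1 library of bulk RNA, and fewer cells of a type and less RNA per cell cannot be told apart in any value below.

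The TCA cycle takes acetyl-CoA into citrate and oxidizes it back to oxaloacetate, passing electrons to the respiratory chain. Pyruvate crosses the inner mitochondrial membrane through a carrier made of Mpc1 and Mpc2 and becomes acetyl-CoA through the pyruvate dehydrogenase complex. Ketone bodies and branched-chain amino acids reach the cycle by their own enzymes. The malate-aspartate shuttle brings cytosolic reducing equivalents into mitochondria. The heart is rich in these enzymes, and cardiomyocytes take on mitochondria and shift towards oxidative fuel use after birth.

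The libraries differed in ways that touch every value. Transcripts of the mitochondrial genome held 35.5% to 41.5% of all TPM in cKO libraries, against 50.005% to 59.4% in control libraries. The median of the 13282 genes tested was 0.63 log2 units higher in cKO as deposited. With TPM closed again without these transcripts, 6066 genes were called higher and 1388 lower, against 10160 higher and 460 lower as deposited. The cause of the shift was not tested. Values were therefore also divided by a size factor per library (1.20 to 1.39 in cKO and 0.702 to 0.848 in control libraries), which placed that median at 0.01. These are called scaled TPM, and differences on them are relative to the median gene. Cardiomyocyte markers, such as Tnnt2 and Actc1, were lower in cKO by that measure in 10 of 10 genes, with a median log2 difference of -0.92 and a summed level of 28160 to 36160 scaled TPM in cKO libraries against 53090 to 56570 in control libraries. Macrophage markers were higher in 10 of 10, with sums of 342 to 501 scaled TPM in the cKO hearts, against 106 to 121 in the controls. Fibroblast markers were higher in 9 of 10, with Dpt lower at -0.23, and endothelial markers lower in 10 of 10. Over all genes tested 20.8% were higher and 20.8% lower by that measure. As deposited the cardiomyocyte list had 2 genes higher, 3 lower and 5 not called, Tnnt2 and Actc1 among the last, with a median of -0.18. On that scale all 10 macrophage and all 10 fibroblast markers were higher, and 1 endothelial marker was higher and 9 were not called. There 76.5% of all genes tested were higher and 3.46% lower. The part of cell makeup in the results below was not tested. cKO replicates 1, 5 and 7 carried Xist and no more than 0.0792 TPM of the Y-linked Ddx3y, while cKO replicates 3 and 6 and all 5 controls carried Ddx3y at 16.7 to 32.8 TPM. Sex was thus unevenly spread over the groups. Results without the Xist libraries are given where the call of a member or of a gene pair is lost. For markers and other named genes they are not given, so whether those calls hold there is not shown. Chmp4b itself was lower in cKO relative to the median gene (log2 difference -1.01, exact permutation p = 0.00794). As deposited its log2 difference was -0.29 (exact permutation p = 0.0476), with 38.2 ± 1.42 TPM in cKO and 47.4 ± 8.61 TPM in control hearts (SD, n = 5 each).

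Relative to the median gene, 28 of the 30 members that could be tested were lower in cKO hearts and 1, pyruvate carboxylase (Pcx), was higher (limma on log2(scaled TPM + 1), Benjamini-Hochberg adjusted p under 0.05 over all tested genes). Among all 13282 tested genes 20.8% were called lower and 20.8% higher by the same test. Glutamate dehydrogenase (Glud1) was not called, and 3-hydroxybutyrate dehydrogenase (Bdh1) fell below the filter of 1 TPM in 5 libraries. The median member stood at -0.94 log2 units, beside 0.01 for all genes tested, and the members ranged between -1.38 and 0.79. In 27 members every cKO library lay below every control library, and in 1 every cKO library lay above, while 15.5% and 15.8% of tested genes did so.

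On TPM as deposited the picture was different in count and partly in direction. There 13 of 30 members were lower, 5 were higher and 12 were not called, with a median of -0.20. Among all tested genes 3.46% were called lower and 76.5% higher, so most members stood below the shift of the whole table. These shares, and 20.8% each way after scaling, are the background for every list count below. The 13 members lower on both scales were Cs, Idh3a, Idh3b, Dlst, Dld, Suclg1, Sucla2, Mpc2, Dlat, Mdh1, Got1, Got2 and Oxct1. Pcx was higher on both scales. Mpc1, Pdhx and Bcat2 were higher as deposited and lower relative to the median gene, so their direction depends on the scale. When TPM was closed again without transcripts of the mitochondrial genome, these 3 stood at -0.05, -0.19 and -0.04 and were not called (adjusted p = 0.573, 0.0558 and 0.655). In the 7 libraries with Ddx3y, 28 members were lower relative to the median gene, but as deposited 6 were lower and 2 higher. The deposited calls lost there were those of Cs, Idh3a, Dlst, Dld, Suclg1, Mpc2 and Dlat (-0.37 to -0.20, adjusted p from 0.052 to 0.18) and of Mpc1, Pdhx and Bcat2 (0.26 to 0.32, adjusted p from 0.088 to 0.0981). The deposited call of Dld also ended without cKO replicate 1 or 3 or control replicate 6, 8 or 9 (adjusted p from 0.0507 to 0.067), and that of Dlst without control replicate 8 (adjusted p = 0.0518). On deposited TPM the groups did not overlap in 9 of all 31 members that were lower and 5 that were higher. Among tested genes 1.92% and 62.5% did so. Those 5 were Mpc1, Pdhx, Pcx, Glud1 and Bdh1, which was not tested, while Bcat2 overlapped.

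**Figure D1:**
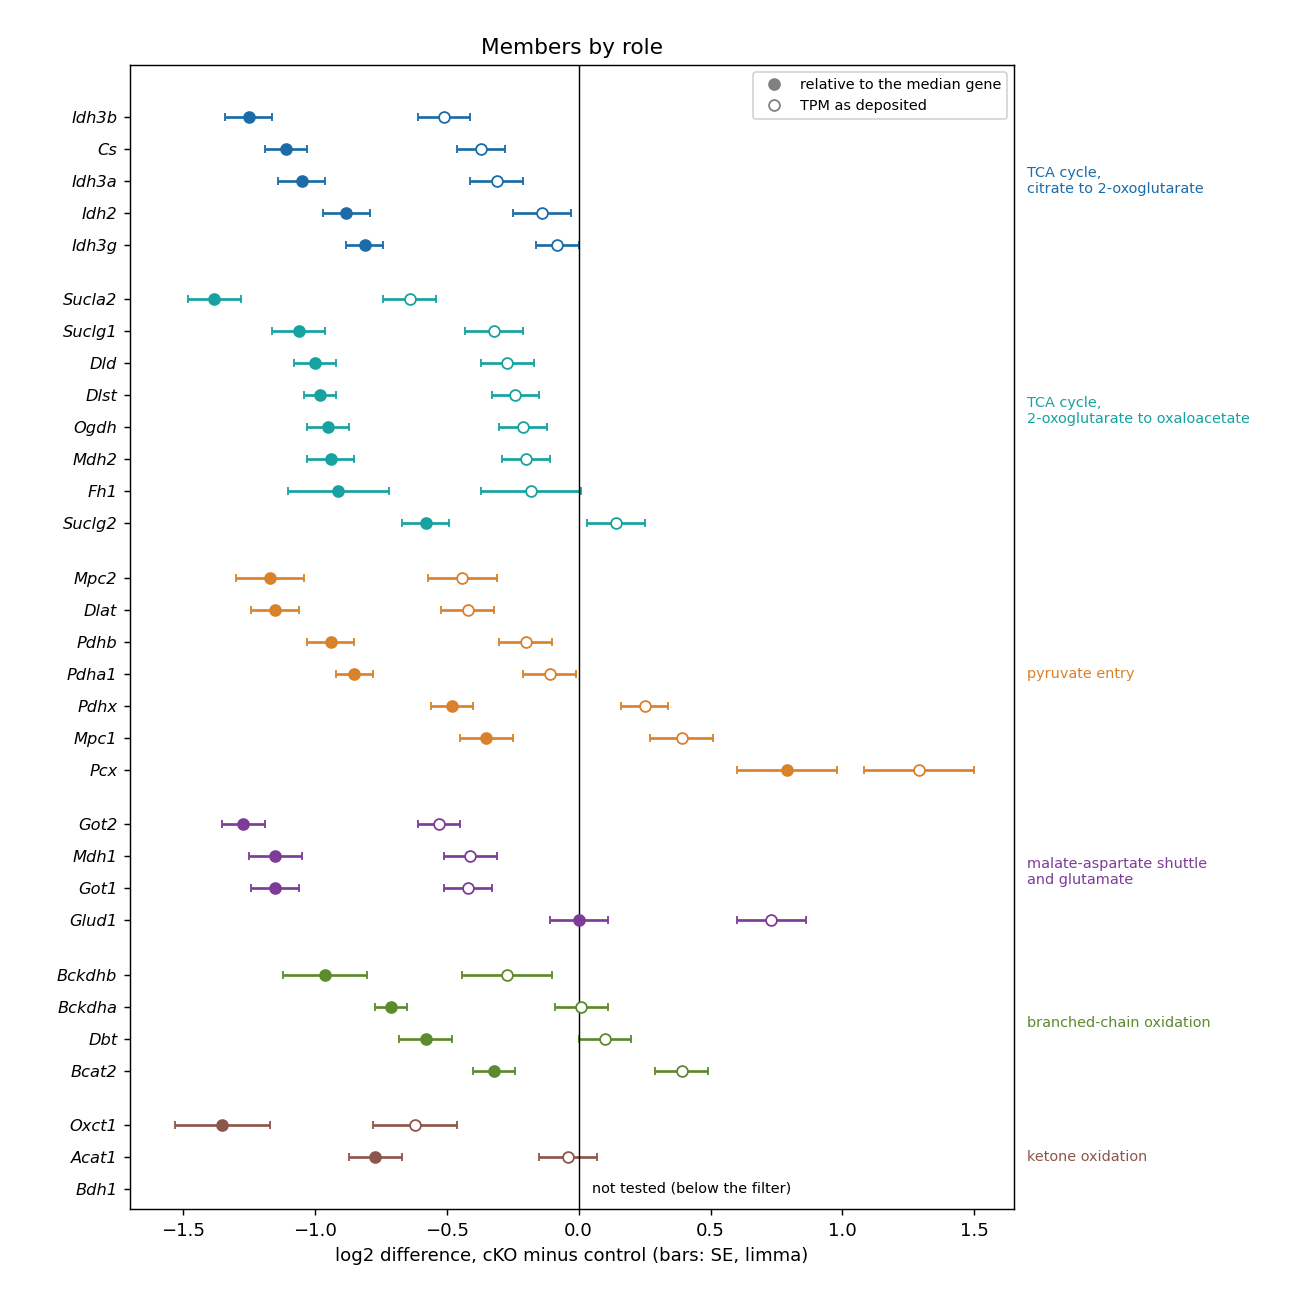
Log2 difference between cKO and control for the members, with bars of 1 SE from limma (5 libraries a group). Filled points are relative to the median gene and open points are TPM as deposited, and the filled points of all but Pcx and Glud1 lie left of 0.

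The first segment of the cycle, from citrate to 2-oxoglutarate, was lower in all 5 members relative to the median gene, with a median of -1.05. Citrate synthase (Cs), which condenses acetyl-CoA with oxaloacetate, had 245, 273, 257, 285 and 269 TPM in cKO replicates 1, 3, 5, 6 and 7, against 314, 371, 363, 373 and 300 TPM in control replicates 4, 6, 8, 9 and 13. Every cKO value was below every control value, also before scaling. Scaled, Cs averaged 205 ± 22.8 TPM in cKO and 441 ± 18.0 TPM in control hearts (SD, n = 5 each), a log2 difference of -1.11 ± 0.08 (SE, adjusted p = 1.18e-06). In what follows library values keep that order of replicates.

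Idh3a, Idh3b and Idh3g encode the subunits of NAD-dependent isocitrate dehydrogenase. The regulatory subunit Idh3b had 179, 204, 202, 221 and 207 TPM in cKO hearts, against 263, 339, 315, 295 and 239 TPM in control hearts. These groups did not overlap, and the scaled means were 156 ± 20.2 TPM in cKO and 371 ± 21.1 TPM in control hearts (log2 difference -1.25, adjusted p = 1.27e-06). The catalytic subunit Idh3a had 140, 161, 157, 172 and 161 TPM in cKO hearts, against 175, 215, 208, 214 and 171 TPM in control hearts. Only the highest cKO library crossed the lowest control library, and the scaled log2 difference was -1.05 (adjusted p = 2.97e-06). The X-linked Idh3g had 197, 204, 196, 202 and 217 TPM in cKO hearts, against 212, 237, 231, 210 and 186 TPM in control hearts. As deposited these overlapped (log2 difference -0.08, adjusted p = 0.417), and after scaling they separated at -0.81 (adjusted p = 3.59e-06). The 3 subunits therefore did not move by the same amount. Within each library, Idh3b over Idh3a was 1.28 ± 0.00936 in cKO and 1.48 ± 0.0818 in control hearts, without overlap (exact permutation p = 0.00794, adjusted over 19 gene pairs 0.0151). Of the 19 pairs 12 passed in all 10 libraries and 0 in the 7 libraries with Ddx3y, where the smallest exact p is 0.0476, reached by 10 pairs. The log2 difference of Idh3b over Idh3a was -0.20 in all libraries and -0.21 in those 7 (adjusted exact p = 0.0905). Idh3g over Idh3a was 1.29 ± 0.0921 in cKO and 1.10 ± 0.0810 in control hearts, with overlap (log2 difference 0.23, adjusted exact p = 0.0251). In the libraries with Ddx3y that difference was 0.15 (adjusted exact p = 0.283). Idh2, the NADP-dependent mitochondrial enzyme, ranged over 422 to 491 TPM in cKO and 434 to 621 TPM in control hearts. Its scaled log2 difference was -0.88 and its ratio to Idh3a missed the threshold (log2 difference of the ratio 0.17, adjusted exact p = 0.0754).

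**Figure D2:**
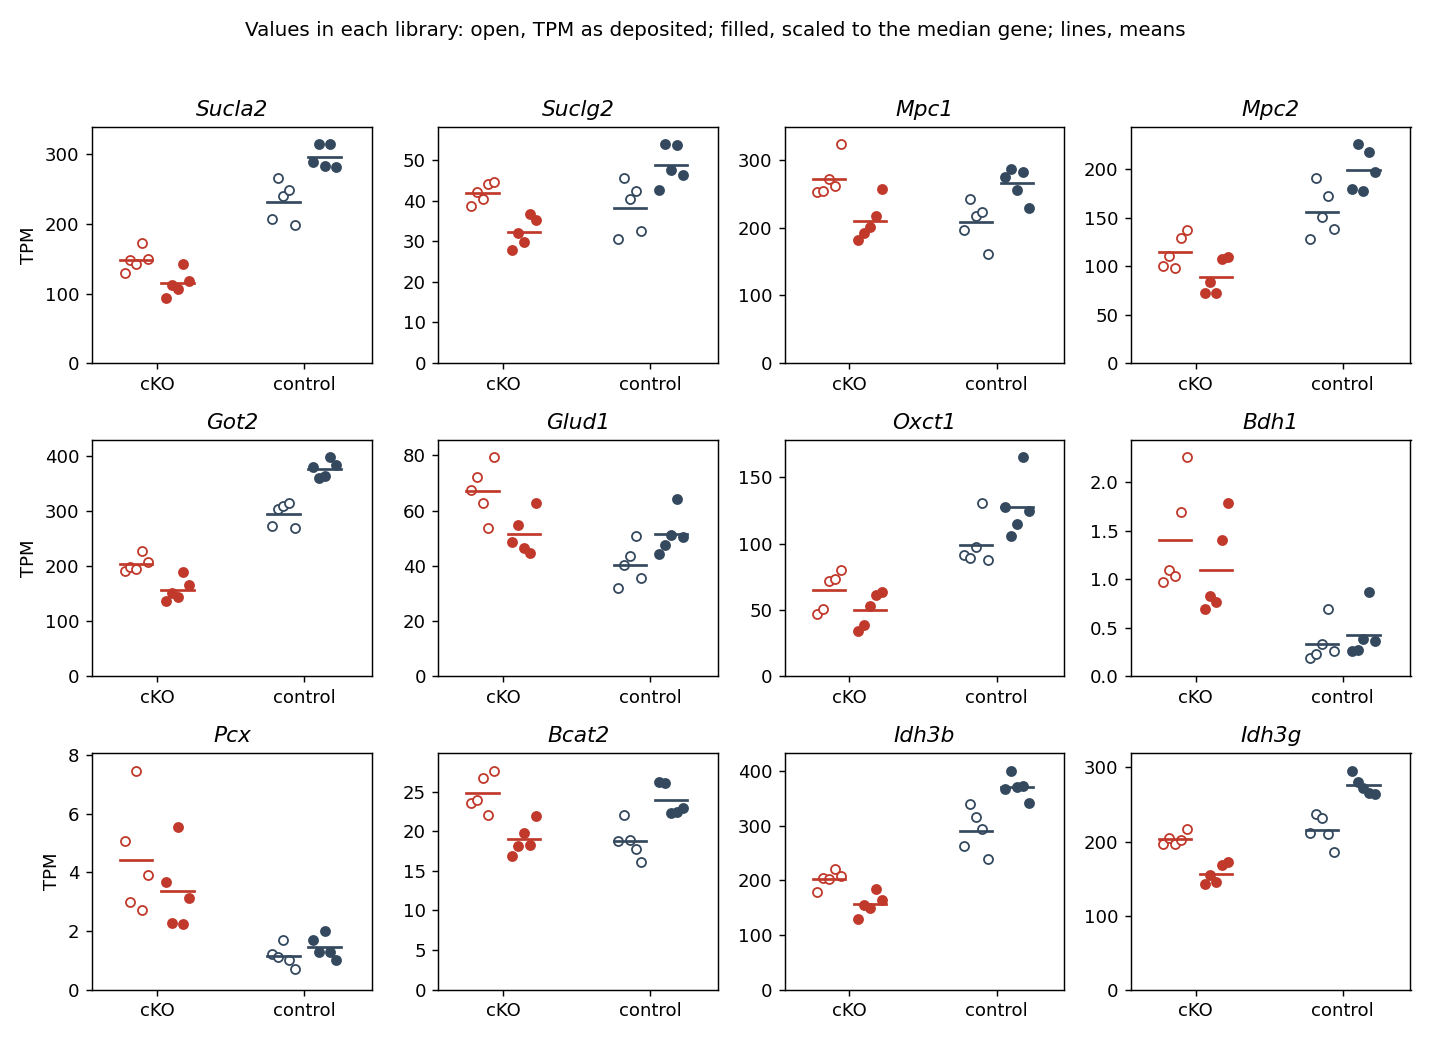
Values of 12 members in each library, in TPM, with open circles as deposited, filled circles scaled to the median gene and lines at the group means. Sucla2, Got2, Oxct1 and Idh3b are lower in cKO on both scales, Pcx is higher on both, and Mpc1 and Bcat2 change side between the scales.

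The second segment, from 2-oxoglutarate to oxaloacetate, was lower in all 8 members relative to the median gene, with a median of -0.96. The widest gap within it was between the alternative beta subunits of succinate-CoA ligase, which turns succinyl-CoA into succinate and makes a nucleoside triphosphate. Sucla2 is the ADP-forming beta subunit, Suclg2 the GDP-forming one, and Suclg1 the alpha subunit that both share. Sucla2 had 130, 148, 143, 172 and 149 TPM in cKO hearts, against 207, 266, 241, 249 and 198 TPM in control hearts. No cKO library reached the lowest control library, and the scaled means were 115 ± 18.4 TPM in cKO and 297 ± 16.4 TPM in control hearts, a ratio of 0.386 (log2 difference -1.38, adjusted p = 1.38e-06). Suclg2 had 38.6, 42.1, 40.3, 44.1 and 44.5 TPM in cKO hearts, against 30.6, 45.6, 40.3, 42.5 and 32.6 TPM in control hearts. As deposited these values were intermixed (log2 difference 0.14, adjusted p = 0.262), and after scaling cKO was lower at 0.662 of control (log2 difference -0.58, adjusted p = 0.000348). Suclg1 had 106, 123, 117, 125 and 137 TPM in cKO hearts, against 137, 184, 162, 152 and 129 TPM in control hearts, a scaled log2 difference of -1.06 (adjusted p = 5.75e-06).

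The ratio of Suclg2 to Sucla2 needs no scaling, and it separated the groups. It was 0.297, 0.285, 0.282, 0.256 and 0.298 in cKO hearts, against 0.148, 0.171, 0.167, 0.171 and 0.165 in control hearts. All 5 cKO libraries were above all 5 controls, by 0.79 log2 units (exact permutation p = 0.00794, the smallest that 5 libraries against 5 can give; adjusted 0.0151). In the 7 libraries with Ddx3y the difference was 0.72 (adjusted exact p = 0.0905).

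The start-site windows of this pair of genes are shown because the paired subunits differed in size of change. They come from RefSeq on GRCm38.p6, 250 bases before to 50 bases after the start, written along the gene's own strand. The Sucla2 window lies on chr14:73552536-73552835 (plus strand) and the Suclg2 window on chr6:95718797-95719096 (minus strand). In the GENCODE M21 annotation the Sucla2 gene spans chr14:73525319-73596142. Its window thus lies inside the gene and not at the upstream end of that span. Capitals mark the NRF1 element (GCGCA, any base, then GCGC) in Sucla2 and the CCAAT box (CCAAT) in Suclg2, each searched on both strands, as were all motifs named here.
Sucla2: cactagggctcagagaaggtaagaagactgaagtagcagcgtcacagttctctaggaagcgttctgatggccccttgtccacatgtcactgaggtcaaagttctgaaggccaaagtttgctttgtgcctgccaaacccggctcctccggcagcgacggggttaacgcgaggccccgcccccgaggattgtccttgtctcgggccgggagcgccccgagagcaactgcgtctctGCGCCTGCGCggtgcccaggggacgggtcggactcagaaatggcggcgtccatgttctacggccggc
Suclg2: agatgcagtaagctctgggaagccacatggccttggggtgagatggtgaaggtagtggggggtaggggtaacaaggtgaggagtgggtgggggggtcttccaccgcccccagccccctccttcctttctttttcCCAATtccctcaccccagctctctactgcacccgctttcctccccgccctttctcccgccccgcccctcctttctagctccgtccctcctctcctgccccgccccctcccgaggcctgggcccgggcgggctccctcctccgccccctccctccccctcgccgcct
The Sucla2 window held the NRF1 element and no CCAAT, and the Suclg2 window held CCAAT and no NRF1 element. An unmarked antioxidant response element core (GCAGCGTCA, on the opposite strand) also lay in the Sucla2 window. Of 28 members with a RefSeq window, the NRF1 element occurred in 2 (Dld and Sucla2; 7.14%, against 5.19% of all genes with a window) and CCAAT in 15 (53.6% against 41.1%). The CCGGAAGT letters of the ETS element occurred in 1 (Dlst; 3.57% against 4.31%), CACGTG of the E-box in 2 (Ogdh and Pcx; 7.14% against 8.09%), and TGACNNNGC of the antioxidant response element in 7 (25% against 14%). TNAAGGTCA of the estrogen-related receptor element occurred in 0 of 28 against 1.43%, and the PPAR element (TGACCTTTG, any base, then CC) in 0 of 28 against 0.0777%. These matches describe letters in a window and were set against no test.

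The other members of this segment moved within a narrow band. Dihydrolipoamide dehydrogenase (Dld), which serves the pyruvate, 2-oxoglutarate and branched-chain dehydrogenase complexes, had 117, 126, 129, 134 and 136 TPM in cKO hearts, against 136, 189, 161, 157 and 135 TPM in control hearts. The highest cKO value passed the 2 lowest controls, and scaled TPM in cKO was 0.498 of control (adjusted p = 3.22e-06). Ogdh and Dlst, the other subunits of the 2-oxoglutarate dehydrogenase complex, differed by -0.95 and -0.98 (adjusted p = 3.10e-06 and 3.77e-07). Their ratios did not pass the test: Dlst over Ogdh was 0.522 ± 0.00896 in cKO and 0.536 ± 0.0367 in control hearts (adjusted exact p = 0.570), and Dld over Ogdh 0.470 ± 0.0483 in cKO and 0.493 ± 0.0742 in control hearts (adjusted exact p = 0.587). Fumarase (Fh1) was the most scattered, at 71.4 to 149 TPM in cKO and 94.7 to 165 TPM in control hearts, with a scaled difference of -0.91 ± 0.19 (SE, adjusted p = 0.00226). Mitochondrial malate dehydrogenase (Mdh2) had 447 to 555 TPM in cKO and 504 to 648 TPM in control hearts (scaled log2 difference -0.94, adjusted p = 8.69e-06).

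At pyruvate entry 6 of 7 members were lower and Pcx was higher relative to the median gene, with a median of -0.85. The carrier partners differed in size of change. Mpc2 had 100, 111, 97.9, 129 and 138 TPM in cKO hearts, against 129, 191, 151, 173 and 139 TPM in control hearts, with scaled means of 89.1 ± 18.3 TPM in cKO and 200 ± 22.1 TPM in control hearts (log2 difference -1.17, adjusted p = 2.84e-05). The scaled values did not overlap. Mpc1 had 253, 254, 272, 262 and 324 TPM in cKO hearts, against 197, 243, 217, 224 and 161 TPM in control hearts. As deposited all cKO libraries were above all controls (log2 difference 0.39, adjusted p = 0.00676), while relative to the median gene cKO was lower at -0.35 with overlap (adjusted p = 0.0143). Mpc1 over Mpc2 was 2.53, 2.30, 2.77, 2.02 and 2.35 in cKO hearts, against 1.53, 1.27, 1.44, 1.29 and 1.16 in control hearts. The ratio was higher in 5 of 5 cKO libraries than in any control (log2 difference 0.84, adjusted exact p = 0.0151; 0.69 in the libraries with Ddx3y, adjusted exact p = 0.0905). A processed pseudogene of Mpc1 was listed at 0 TPM in every library.

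The windows of the carrier pair are shown for the same reason, from the same table. Mpc1 has a first start on chr17:8283537-8283836 and Mpc2 a start on chr1:165461010-165461309, both on the plus strand. Capitals mark CCAAT, or ATTGG where the box lies on the opposite strand.
Mpc1: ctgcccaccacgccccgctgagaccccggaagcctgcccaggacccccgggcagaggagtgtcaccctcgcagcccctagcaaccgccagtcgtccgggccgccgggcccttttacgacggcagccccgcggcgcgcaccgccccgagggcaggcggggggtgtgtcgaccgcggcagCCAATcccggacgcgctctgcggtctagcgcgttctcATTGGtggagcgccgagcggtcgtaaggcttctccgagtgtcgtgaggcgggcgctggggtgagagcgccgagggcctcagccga
Mpc2: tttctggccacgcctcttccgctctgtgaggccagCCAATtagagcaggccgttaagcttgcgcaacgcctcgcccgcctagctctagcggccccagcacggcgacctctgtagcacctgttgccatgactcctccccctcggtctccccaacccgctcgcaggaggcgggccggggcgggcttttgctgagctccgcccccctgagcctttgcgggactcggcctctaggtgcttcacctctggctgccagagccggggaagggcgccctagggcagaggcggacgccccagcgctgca
The first Mpc1 window held 2 CCAAT matches, a second annotated Mpc1 window held 0, and the Mpc2 window held 1. Both genes of the carrier have the box in a window.

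The pyruvate dehydrogenase complex was lower in all 4 of its listed subunits relative to the median gene. Dlat, the acetyltransferase core, had 75.01, 78.7, 82.6, 89.4 and 76.5 TPM in cKO hearts, against 100, 116, 110, 125 and 90.3 TPM in control hearts. No cKO library reached a control library, and the scaled log2 difference was -1.15 (adjusted p = 1.87e-06). Pdha1, the X-linked alpha subunit of the pyruvate-decarboxylating enzyme, and its beta partner Pdhb differed by -0.85 and -0.94 (adjusted p = 2.22e-06 and 6.01e-06). Their ratio, Pdhb over Pdha1, was 1.23 ± 0.0962 in cKO and 1.31 ± 0.0428 in control hearts and did not pass the test (adjusted exact p = 0.188). Pdhx, which anchors Dld to the core, had 51.9 to 56.5 TPM in cKO and 39.0 to 49.6 TPM in control hearts. It was higher as deposited (log2 difference 0.25, adjusted p = 0.0152) and lower relative to the median gene (-0.48, adjusted p = 0.000392). Within libraries Pdhx over Dlat was 0.672 ± 0.0646 in cKO and 0.419 ± 0.0334 in control hearts (log2 difference 0.68, adjusted exact p = 0.0151; 0.63 in the libraries with Ddx3y, adjusted exact p = 0.0905). Dlat over Pdha1 was 0.325 ± 0.0247 in cKO and 0.404 ± 0.0294 in control hearts (log2 difference -0.31, adjusted exact p = 0.0151; -0.28 in the libraries with Ddx3y, adjusted exact p = 0.0905).

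Pcx, which carboxylates pyruvate to oxaloacetate and so refills the cycle, was the least abundant tested member. It had 5.07, 2.97, 7.46, 2.71 and 3.92 TPM in cKO hearts, against 1.21, 1.10, 1.69, 1.01 and 0.716 TPM in control hearts. Every cKO value was above every control value, and the 3 highest were the libraries with Xist. The scaled means were 3.36 ± 1.36 TPM in cKO and 1.45 ± 0.384 TPM in control hearts (log2 difference 0.79, adjusted p = 0.00589). In the libraries with Ddx3y alone the scaled difference was 0.40 (adjusted p = 0.105) and the deposited one 0.86 (adjusted p = 0.00268). Relative to the median gene 10 of 10 macrophage and 9 of 10 fibroblast markers were also higher in cKO. The part of those cells in the Pcx values was not tested. Pcx over Pdha1 was 0.0180 ± 0.00842 in cKO and 0.00425 ± 0.00117 in control hearts (log2 difference 2.01, adjusted exact p = 0.0151; 1.44 in the libraries with Ddx3y, adjusted exact p = 0.0905).

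The complex is switched off by kinases and on again by phosphatases. Of 7 kinases and phosphatases on the list, 2 were higher, 3 lower and 2 not called relative to the median gene, with a median of -0.07, and as deposited 4 were higher and 3 not called. Pdk4, the kinase induced by fasting and fatty acids, had 398, 340, 308, 324 and 302 TPM in cKO hearts, against 129, 152, 209, 120 and 96.1 TPM in control hearts (scaled log2 difference 0.54, adjusted p = 0.00782). Every cKO library was above every control library as deposited, as in 62.5% of tested genes. After scaling the groups overlapped, at 229 to 287 TPM in cKO and 137 to 246 TPM in control hearts. Pdk4 over Pdha1 was 1.35 ± 0.148 in cKO and 0.522 ± 0.123 in control hearts (log2 difference 1.39, adjusted exact p = 0.0151; 1.36 in the libraries with Ddx3y, adjusted exact p = 0.0905). Pdk3 was higher by 0.47 (adjusted p = 0.00284), with 13.3 ± 1.94 TPM in cKO and 5.48 ± 0.617 TPM in control hearts. Pdk2, a kinase broadly expressed across tissues, had 79.8 ± 2.14 TPM in cKO and 79.7 ± 10.3 TPM in control hearts, a scaled difference of -0.72 (adjusted p = 9.15e-06). Pdpr, a regulatory subunit of the phosphatase, differed by -0.80 (adjusted p = 0.00207).

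**Figure D3:**
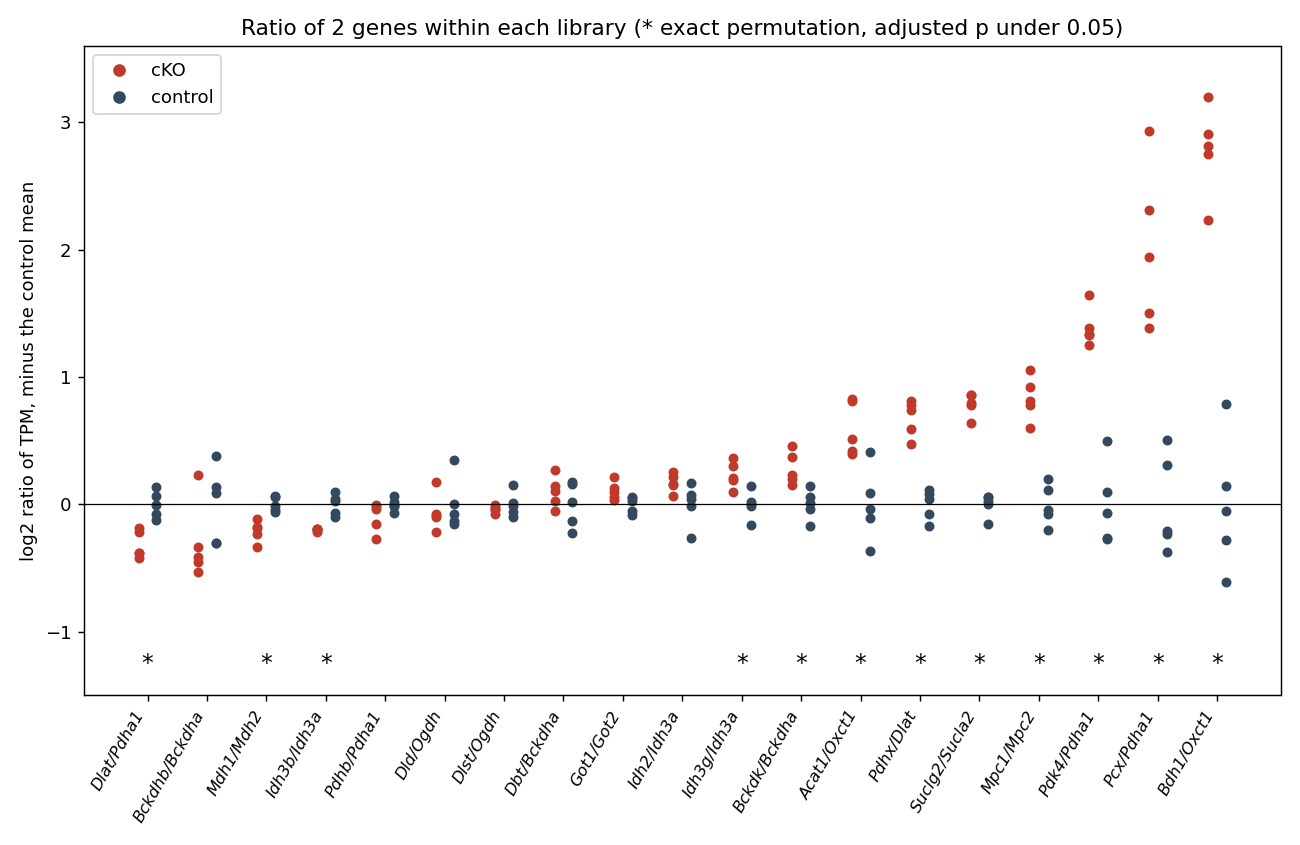
Log2 ratio of the TPM of 2 genes within each library, minus the mean of the control libraries, for 19 pairs. Stars mark the 12 pairs with an adjusted exact permutation p under 0.05, of which Bdh1/Oxct1, Pcx/Pdha1 and Pdk4/Pdha1 lie highest.

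The malate-aspartate shuttle was lower in its 3 enzymes, and Glud1, listed with them, was not called. Got2, the mitochondrial aspartate aminotransferase, had 191, 199, 195, 227 and 208 TPM in cKO hearts, against 273, 305, 310, 315 and 270 TPM in control hearts. These did not overlap on either scale (scaled log2 difference -1.27 ± 0.08 SE, adjusted p = 7.52e-07; as deposited -0.53). A pseudogene of Got2 reached no more than 0.197 TPM. Its cytosolic counterpart Got1 had 103, 106, 118, 127 and 119 TPM in cKO hearts, against 145, 165, 155, 170 and 132 TPM in control hearts, again without overlap (scaled log2 difference -1.15, adjusted p = 2.33e-06). Cytosolic malate dehydrogenase (Mdh1), the most abundant member, had 679, 789, 843, 871 and 907 TPM in cKO hearts, against 1042, 1209, 1181, 1072 and 924 TPM in control hearts (scaled log2 difference -1.15, adjusted p = 5.75e-06). Mdh1 over Mdh2 was 1.66 ± 0.0931 in cKO and 1.92 ± 0.0759 in control hearts (log2 difference -0.21, adjusted exact p = 0.0151; -0.18 in the libraries with Ddx3y, adjusted exact p = 0.0905), while Got1 over Got2 missed the threshold at 0.561 ± 0.0273 in cKO and 0.521 ± 0.0230 in control hearts (adjusted exact p = 0.0580).

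Glud1, which interconverts glutamate and 2-oxoglutarate, had 67.4, 72.1, 62.6, 53.7 and 79.2 TPM in cKO hearts, against 31.8, 40.2, 43.4, 50.7 and 35.5 TPM in control hearts. As deposited all cKO libraries were above all controls (log2 difference 0.73, adjusted p = 0.000269), about the shift of the median gene. Scaled, the means were 51.5 ± 7.42 TPM in cKO and 51.6 ± 7.54 TPM in control hearts, with overlap (adjusted p = 0.988). Of the mitochondrial carriers listed with the shuttle, 5 of 6 were lower relative to the median gene and 1 was not called, and as deposited 1 was lower, 2 higher and 3 not called. Slc25a11, the 2-oxoglutarate-malate carrier, differed by -1.22 (adjusted p = 2.14e-06), and the glutamate carrier Slc25a22 by -0.80 (adjusted p = 0.000105).

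Branched-chain oxidation was lower in all 4 members relative to the median gene, but its median of -0.65 was the smallest in size of the 6 roles. As deposited 1 of the 4 was higher and 3 were not called. Bcat2, the mitochondrial aminotransferase that takes the first step, had 23.5, 24.0, 26.7, 22.0 and 27.6 TPM in cKO hearts, against 18.7, 22.1, 18.9, 17.7 and 16.1 TPM in control hearts. It was higher as deposited (log2 difference 0.39, adjusted p = 0.00300) and lower after scaling (-0.32, adjusted p = 0.00747). Bckdhb, the beta subunit of the branched-chain dehydrogenase, had 11.1, 10.6, 11.3, 11.9 and 16.5 TPM in cKO hearts, against 11.3, 22.5, 13.2, 16.2 and 13.3 TPM in control hearts (scaled log2 difference -0.96, adjusted p = 0.000564). Its highest cKO library lay well above the other cKO libraries. Bckdha, the alpha subunit, and Dbt, the transacylase core, differed by -0.71 and -0.58 after scaling (adjusted p = 5.24e-06 and 0.000785). Neither Bckdhb over Bckdha (0.425 ± 0.101 in cKO and 0.522 ± 0.108 in control hearts, adjusted exact p = 0.161) nor Dbt over Bckdha (0.401 ± 0.0344 in cKO and 0.376 ± 0.0454 in control hearts, adjusted exact p = 0.355) passed the test.

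The dehydrogenase is switched off by its kinase Bckdk and on by its phosphatase Ppm1k. Bckdk over Bckdha was 0.914 ± 0.0824 in cKO and 0.751 ± 0.0605 in control hearts (log2 difference 0.28, adjusted exact p = 0.0151; 0.19 in the libraries with Ddx3y, adjusted exact p = 0.165). Bckdk was lower after scaling (-0.44, adjusted p = 0.000208) and higher as deposited (0.28, adjusted p = 0.0106). Ppm1k had 3.06 ± 0.593 TPM in cKO and 4.64 ± 1.33 TPM in control hearts (scaled log2 difference -1.02, adjusted p = 0.000180). Of 20 tested genes of the later branched-chain steps and their control, 17 were lower and 3 not called relative to the median gene, with a median of -0.70. As deposited 3 of these were lower, 8 higher and 9 not called, with a median of 0.02. Mcee, which acts on methylmalonyl-CoA, differed by -1.05 (adjusted p = 4.23e-05).

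Ketone oxidation was lower at its activating enzyme Oxct1, which transfers CoA to acetoacetate. Oxct1 had 47.1, 51.0, 71.7, 73.7 and 80.1 TPM in cKO hearts, against 91.6, 89.3, 97.1, 130 and 87.3 TPM in control hearts. The groups did not overlap on either scale, and the scaled means were 50.1 ± 13.3 TPM in cKO and 127 ± 22.7 TPM in control hearts (log2 difference -1.35 ± 0.18 SE, adjusted p = 9.85e-05). Acat1, which splits acetoacetyl-CoA, had 94.5, 101, 106, 119 and 121 TPM in cKO hearts, against 96.3, 134, 117, 114 and 96.5 TPM in control hearts. As deposited these were intermixed (log2 difference -0.04, adjusted p = 0.755), and after scaling cKO was lower at -0.77 (adjusted p = 8.92e-05). Bdh1, which oxidizes 3-hydroxybutyrate, stood near the limit of the table, with 0.969, 1.10, 1.03, 1.69 and 2.25 TPM in cKO hearts, against 0.184, 0.225, 0.330, 0.690 and 0.258 TPM in control hearts. All 5 cKO values were above all 5 control values. With no filter on low values Bdh1 was higher as deposited (log2 difference 0.83, adjusted p = 0.00191) and at the threshold after scaling (0.54, adjusted p = 0.0499). The read depth behind these low values is unknown.

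Bdh1 over Oxct1 had the widest separation of the 19 pairs. It was 0.0206, 0.0215, 0.0144, 0.0230 and 0.0281 in cKO hearts, against 0.00201, 0.00252, 0.00339, 0.00529 and 0.00296 in control hearts (log2 difference 2.78, adjusted exact p = 0.0151). The difference was 1.46 with 1 TPM added to both genes, and 2.86 in the libraries with Ddx3y (adjusted exact p = 0.0905). Acat1 over Oxct1 was 1.72 ± 0.255 in cKO and 1.15 ± 0.231 in control hearts, with overlap (log2 difference 0.59, adjusted exact p = 0.0251; 0.66 in the libraries with Ddx3y, adjusted exact p = 0.0905). Acss1, which activates acetate in mitochondria, differed by -1.03 after scaling (adjusted p = 6.01e-06), and the cytosolic Acss2 by -0.36 (adjusted p = 0.00128). Of the 3 tested genes on their list, ketone synthesis and acetate use, 2 were lower and 1 not called after scaling (median -0.36). As deposited 2 of these were higher and 1 lower (median 0.32), so the direction of the list depends on the scale.

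**Figure D4:**
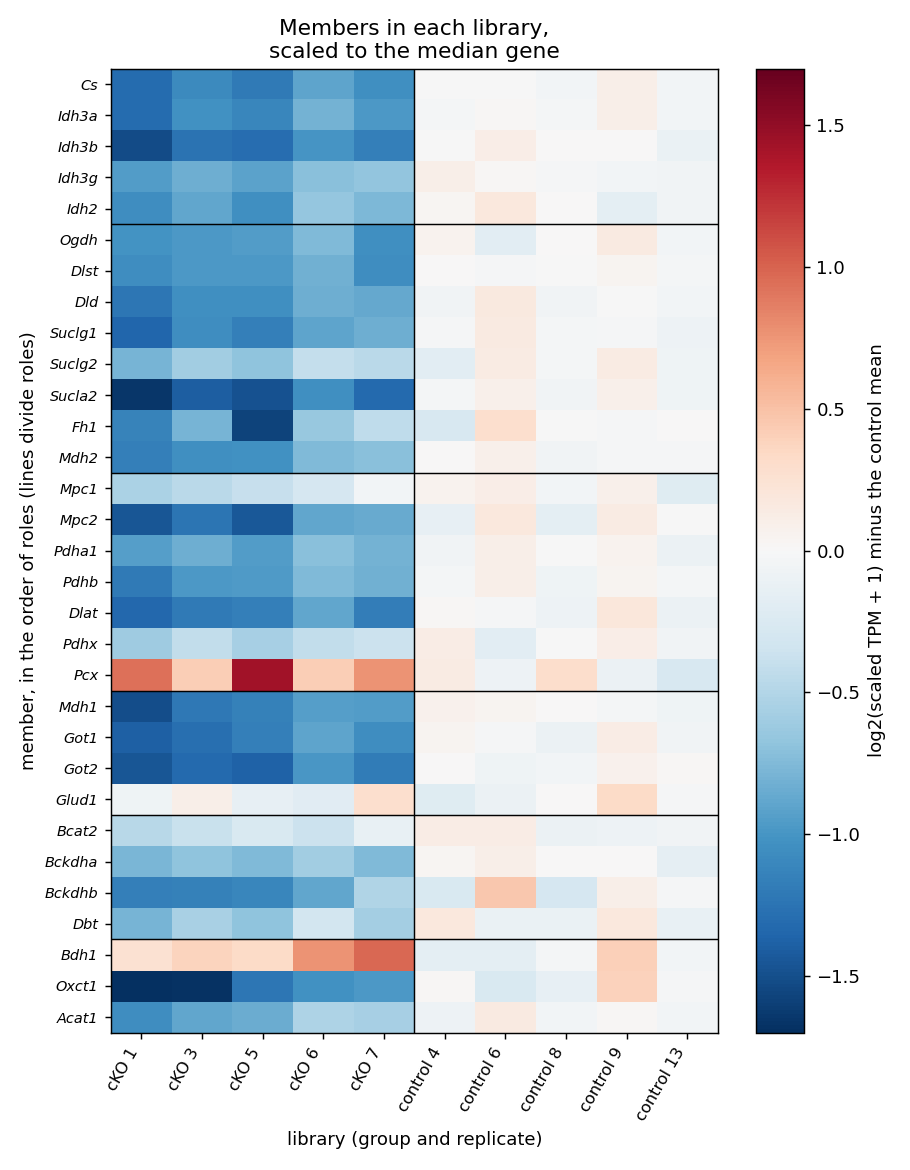
Each member in each library as log2(scaled TPM + 1) minus the mean of the control libraries, in the order of roles, with cKO libraries on the left. Blue is lower than the control mean, and cKO replicate 1 is the lowest cKO library in 25 of 31 members.

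The same libraries were often at the edge of their group. On scaled TPM cKO replicate 1 was lowest of its group in 25 of 31 members, and cKO replicates 6 and 7 were highest in 18 and 12, while among controls replicate 6 was highest in 15 and replicate 13 lowest in 13. As deposited cKO replicate 1 was lowest in 18, and among controls replicate 6 was highest in 19 and replicate 13 lowest in 24. A library's size factor shifts all its genes alike, and these ranks are a description with no test. The coefficient of variation of the members had a median of 12.9% in cKO and 7.17% in control hearts on scaled TPM, and 8.44% in cKO and 13.6% in control hearts as deposited. The 31 members together made up 0.528% ± 0.0341 of the TPM total in cKO, against 0.631% ± 0.0680 in control hearts (SD, n = 5 each). Outside transcripts of the mitochondrial genome they held 0.872% ± 0.0572 in cKO and 1.41% ± 0.0444 in control hearts.

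Other genes of the same pathways, on lists that hold none of the members, were mixed. Of 63 tested, 42 were lower, 6 higher and 15 not called relative to the median gene, with a median of -0.54. As deposited 11 were lower, 29 higher and 23 not called. The 5 TCA enzymes outside the members were all lower after scaling (median -0.85). The succinate dehydrogenase subunits Sdhb and Sdha were at -1.13 and -1.10 after scaling (adjusted p = 7.26e-06 and 1.37e-06). As deposited only these 2 of the 5 were lower, at -0.39 and -0.36. Of 5 genes that supply lipoate and thiamine cofactors, 4 were lower after scaling (median -0.43), among them Lipt1, a lipoyltransferase, at -0.49 (adjusted p = 0.00358). As deposited 2 of these 5 genes were higher and 3 not called. Of 5 lactate dehydrogenases and transporters, 1 was higher, 2 lower and 2 not called relative to the median gene. As deposited 3 were higher, Ldhb was lower and Slc16a1 was not called (log2 difference -0.21, adjusted p = 0.0685). After scaling Ldhb differed by -1.24 and the transporter Slc16a1 by -0.93 (adjusted p = 3.33e-06 and 1.29e-06). The lactate exporter Slc16a3 was higher by 1.33 (adjusted p = 0.00185), with 10.4 ± 3.85 TPM in cKO and 2.01 ± 0.824 TPM in control hearts.

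Malic enzymes and cytosolic side reactions stood, as a list, near the median gene. Of 12 tested, 3 were higher, 4 lower and 5 not called relative to the median gene (median 0.02). As deposited 8 were higher, 3 lower and 1 not called. Over all tested genes 20.8% were called each way relative to the median gene, and 76.5% higher and 3.46% lower as deposited. Glutamine synthetase (Glul) had 380, 314, 332, 278 and 403 TPM in cKO hearts, against 55.1, 60.5, 62.9, 62.4 and 51.7 TPM in control hearts. That is a scaled log2 difference of 1.78 (adjusted p = 8.58e-08), with every cKO library above every control. The cytosolic malic enzyme Me1, which makes NADPH, had 79.2 ± 12.5 TPM in cKO and 22.2 ± 4.25 TPM in control hearts (scaled log2 difference 1.07, adjusted p = 1.27e-05). The alanine aminotransferases Gpt and Gpt2 were lower at -1.56 and -1.54 (adjusted p = 8.15e-06 and 2.82e-06).

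**Figure D5:**
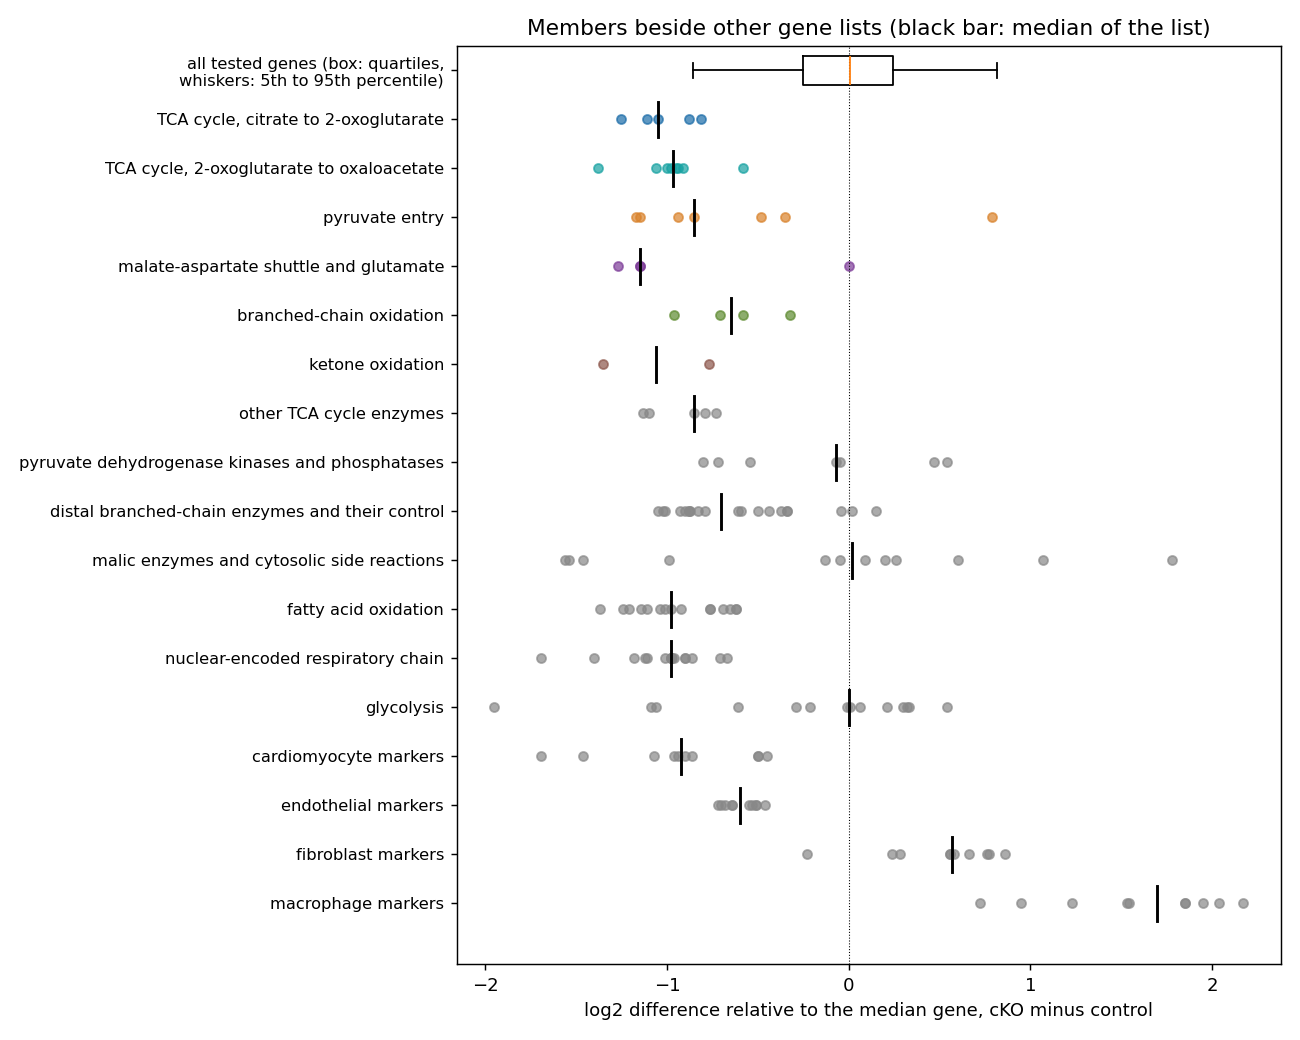
Log2 difference relative to the median gene for the tested members by role, for other lists and for all tested genes (box at the quartiles, whiskers at the 5th and 95th percentiles). Black bars are list medians, and the medians of the 2 TCA segments lie beside those of fatty acid oxidation, the respiratory chain and the cardiomyocyte markers.

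Beside other mitochondrial lists the members took a like position. All 15 genes of fatty acid oxidation and all 16 nuclear-encoded respiratory chain genes were lower relative to the median gene, each list with a median of -0.98, beside -0.94 for the members and -0.92 for the cardiomyocyte markers. The 2 most changed were Acaa2 (-1.37) and Etfb (-1.24) in the first list and Cox7a1 (-1.69) and Cox6a2 (-1.40) in the second. Of 14 glycolysis genes 5 were higher, 5 lower and 4 not called, with a median of 0.00, beside 20.8% each way over all tested genes. As deposited 10 were higher, 3 lower and 1 not called (median 0.74), while the fatty acid oxidation and respiratory chain lists each had 7 lower and the rest not called (medians -0.24). After scaling Gpi1 and Aldoa were higher at 0.54 and 0.33, and the muscle forms Eno3 and Pfkm were lower at -1.95 and -1.09 (adjusted p = 0.000494, 0.0117, 1.48e-06 and 1.89e-06). No test of the difference between lists was made.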

How the data were processed

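The 10 libraries, 5 cKO and 5 control, were read from 1 table. Per the submitters' processing notes the genome build was mm10 and the tools included STAR 2.7.1, HTSeq 0.11.2, Picard 1.96, Trimmomatic 0.32, DESeq2 1.22.2, FastQC 0.11.7 and bcl2fastq. Which gene annotation was used is not given in the sources used here. Per the labels, 1 microgram of total RNA entered each library. The authors deposited TPM per gene, scaled by gene length and closed to a fixed total per library. TPM keeps no read count, so depth is unknown and no counting interval is given.

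Here log2(TPM + 1) was fitted with limma 3.58.1 (R 4.3.3, mean-variance trend) for the 13282 genes with at least 1 TPM in at least 5 of 10 libraries, with two-sided Benjamini-Hochberg adjusted p under 0.05 as the call. The fit was repeated on TPM divided by median-of-ratios size factors, from 16393 genes above 0 in every library. The scaled fit was tested on simulated data of 13282 genes, with 66 or 67 genes changed at each fold. It called 79.1%, 91% and 100% of those changed 1.5-, 2- and 4-fold, with 7 false calls. So few changed genes cannot probe the scaling, as 20.8% of the real genes were called each way. Ratios within libraries were tested by two-sided exact permutation and adjusted over 19 pairs. Differences are on the log2(TPM + 1) scale and understate low genes. The labels number the mice but do not say whether they are littermates.

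Members and lists were chosen with earlier results of these data known. In each role the lowest and highest member, and any at or beyond 1 log2 unit, have values per library. Of other genes, up to 2 called per direction and list are named, plus Sdha, Pdk4, Pdk2, Bckdk and Ppm1k. Some genes this rule names are not reported here. Markers of smooth muscle, lymphocytes, erythroid cells, fat, epicardium and skeletal muscle were also summed. Promoter windows are RefSeq's (GRCm38.p6). Alternatives were a pseudocount of 0.1, no filter, a filter of 5 TPM, no trend, library weights, a Ddx3y covariate, other scalings and leaving out libraries. Restricting the fit to libraries with Ddx3y was added after seeing the data.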

Additional observations from a re-analysis of the deposited data

Results flagged for a closer look

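In 7 of 100 sets of 5 library values, 1 library stood far from the other 4 by Dixon's criterion, which chance alone meets in about 1 set in 20. For Cs, control replicate 9 had 472 scaled TPM, above the 428 to 439 of the other controls. Control replicate 6 was high for Dld, with 224 scaled TPM against 190 to 198 in the other controls, and for Suclg1, with 217 against 184 to 192. The same library had a Dld/Ogdh ratio of 0.621, where the other controls had 0.440 to 0.490. For Bdh1, control replicate 9 had 0.873 scaled TPM, where the others had 0.257 to 0.388, and it is this library that overlaps the cKO values after scaling. The Suclg2/Sucla2 ratio was 0.148 in control replicate 4 and 0.165 to 0.171 in the other controls. In cKO replicate 7 the Bckdhb/Bckdha ratio was 0.602, above the 0.355 to 0.407 of the other cKO libraries.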

How the results depend on the processing

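The count of 28 members lower relative to the median gene was the same in every alternative run except one. When TPM was closed again without mitochondrially encoded genes, 25 members were lower (Mpc1 at -0.05, Pdhx at -0.19 and Bcat2 at -0.04 lost the call), 2 were higher (Pcx and Glud1), and 6066 of all tested genes were higher and 1388 lower, since that scale does not centre the median gene. The 1 higher member, Pcx, became 0 with a filter of 5 TPM, where it is not tested, 0 with a Ddx3y covariate (0.51, adjusted p = 0.0589) and 0 in the libraries with Ddx3y, and 2 with no filter (Bdh1 joins). Those 7 libraries gave 3477 genes called relative to the median gene, 1673 higher and 1804 lower, 0 ratio pairs (10 at the smallest unadjusted exact p those libraries allow, 0.0476), and, as deposited, 2 members higher and 6 lower. As deposited the Ddx3y covariate gave 8 members lower, and the filter of 5 TPM gave 293 genes lower. For these losses the cause was not tested beyond the fewer genes or libraries that enter. Left out of the denominator, mitochondrially encoded genes change the summed share to 0.872% in cKO and 1.41% in control.

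Leaving out each library in turn, genes called as deposited numbered 10230 to 10588 (9763 to 10171 higher, 395 to 516 lower), and members 5 higher and 11 to 16 lower. Relative to the median gene there were 5030 to 5468 genes called (2529 to 2712 higher, 2499 to 2756 lower), always 1 member higher and 28 lower, and 12 to 13 ratio pairs. Got1/Got2 passed the threshold without cKO replicate 3 or control replicate 9, and Idh2/Idh3a without control replicate 6 (adjusted exact p = 0.0348, 0.0464 and 0.0348). As deposited the members gained, each in 1 or 2 of these fits, were Ogdh, Mdh2, Pdhb and Bckdhb. Got1/Got2 also passed with a pseudocount of 1 (0.0464), and as deposited Ogdh, Mdh2 and Pdhb were called with library weights (adjusted p = 0.0123, 0.0212 and 0.0247) and Ogdh with a pseudocount of 0.1 (0.049). Reversals concern values near 0 that were not called, except that Glud1 was called higher without mitochondrially encoded genes. As deposited Bckdha, 0.01 in the full set, became -0.01 with library weights and ranged over -0.07 to 0.06 with a library left out, and Acat1 over -0.09 to 0.03. After scaling Glud1 ranged over -0.07 to 0.08 with a library left out, was 0.02 with upper-quartile scaling and 0.29 (adjusted p = 0.0433) without mitochondrially encoded genes. Dlst/Ogdh ranged over -0.06 to 0 and Dld/Ogdh over -0.12 to 0.02. No paired analysis was possible because the groups share fewer than 2 replicate numbers.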

Other observations

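Marker lists that the report does not use moved as follows relative to the median gene. Of 7 smooth muscle and pericyte markers 2 were higher, 3 lower and 2 not called (median -0.28). The 5 erythroid markers tested ranged over -0.78 to -0.36, with sums of 1318 to 7181 scaled TPM in cKO and 4356 to 7004 in control hearts. The 1 lymphocyte marker tested was higher at 0.98 and the 1 epicardial marker tested lower at -1.19. Of 4 skeletal muscle markers tested, Ckm, which heart muscle also makes in quantity, was lower at -1.76 (limma adjusted p = 9.67e-06), with 251.9 to 491.5 scaled TPM in cKO and 1103 to 1450 in control hearts, while Myh1, Myh2 and Tnnt3 were not called and stayed at or under 5.49 scaled TPM in every library. Of 6 fat markers 1 passed the filter and was lower at -0.42, and Retn was listed at 0 in every library.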
